A study of Mus musculus with 8 samples.

Results

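The genes described here are the 8 voltage-gated calcium channel alpha subunit genes Cacna1a, Cacna1b, Cacna1c, Cacna1d, Cacna1e, Cacna1g, Cacna1h and Cacna1i, chosen by symbol out of 15598 gene rows in the expression tables, together with their cassette exons in the splicing tables. All 8 were listed for the knockdown and cytoplasmic comparisons, and 7 of the 15489 rows for the nuclear comparison belonged to them. No row there carries the symbol Cacna1a, so its nuclear level was not analysed here. RNA-seq had been performed on mouse hippocampal neurons in culture, in 4 groups of 2 samples. All groups were transduced at 9 days in vitro (DIV) with an AAV2/9 vector at 1500 genomic copies per cell for 12 hours, were given siRNA at 1.2 mM from 10 DIV for 4 days, and were collected at 14 DIV. The control group had the vector AAV2/9-SynI-EGFP with siRNAs labelled Non-targeting. The knockdown group had the same vector with siRNAs against Rbfox1 and Rbfox3. The cytoplasmic rescue group carried AAV2/9-SynI-Flag-Rbfox1_C_siMt with the Rbfox1 and Rbfox3 siRNAs, and the nuclear rescue group carried AAV2/9-SynI-Flag-Rbfox1_N_siMt with the same siRNAs. SynI names the synapsin promoter, which is active in neurons, so the vector proteins are made in neurons while other cells of the culture also contribute RNA. The labels name no separate cultures for the paired samples of a group, and the tables give a single combined value for each group, so the spread between samples is unknown.

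The alpha subunit of a voltage-gated calcium channel forms the pore and senses the membrane voltage, and its type sets where and when calcium enters the neuron. P/Q-type (Cacna1a), N-type (Cacna1b) and R-type (Cacna1e) channels supply calcium for transmitter release and also act in dendrites, L-type channels (Cacna1c and Cacna1d) couple activity to gene expression, and T-type channels (Cacna1g, Cacna1h and Cacna1i) open near the resting potential and shape firing. These genes are long and carry many alternative exons. Rbfox proteins bind pre-mRNA mostly in introns, where they promote or repress the use of nearby exons, and the cytoplasmic isoform of Rbfox1 is known to bind mature mRNA.

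Inclusion of a 36 nt cassette exon of Cacna1a was lower in the Rbfox1 and Rbfox3 knockdown than in control, and higher in the nuclear rescue than in the knockdown. No alpha subunit gene passed the authors' test for a change of transcript level in any comparison. The exon lies at chr8:87159448-87159483 on the plus strand of mm9. Its length and the lengths of both neighbouring exons and introns matched exon 44 of 47 of a GENCODE M21 Cacna1a transcript (chr8:84635549-84635584 in GRCm38), where the exon and both neighbours are coding. It lies in the part of the gene that encodes the intracellular C-terminal tail. It adds 12 whole codons, so the reading frame is the same with and without it. GENCODE M21 listed 3 transcripts with this exon and 0 that join its neighbours directly. The GENCODE transcript sequence is shown with the last 30 and first 30 bases of the neighbouring exons in lower case and the cassette exon in capitals, because the 2 forms are what the junction reads tell apart.
Cacna1a with the 36 nt exon: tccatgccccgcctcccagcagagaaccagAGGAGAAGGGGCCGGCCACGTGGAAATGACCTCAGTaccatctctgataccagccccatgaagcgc
Cacna1a without the 36 nt exon: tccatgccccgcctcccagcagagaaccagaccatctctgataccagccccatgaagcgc

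In the control group 61 reads joined the upstream exon to the 36 nt exon, 52 joined it to the downstream exon and 15 skipped it. In the knockdown group the corresponding reads were 37, 25 and 44. The cytoplasmic rescue group had 72, 55 and 48 reads, and the nuclear rescue group had 50, 44 and 16. Skipping reads were thus fewest in the control and nuclear rescue groups, and in the knockdown group they outnumbered the reads of either inclusion junction.

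The authors' inclusion fraction, the estimated share of transcripts that contain the exon, was 0.808 in control, 0.483 in knockdown, 0.623 in the cytoplasmic rescue and 0.765 in the nuclear rescue. The share of all junction reads that included the exon was 88.3% in control (exact Clopper-Pearson 95% interval 81.4 to 93.3, 128 reads). It was 58.5% in knockdown (48.5 to 68.0, 106 reads), 72.6% in the cytoplasmic rescue (65.3 to 79.0, 175 reads) and 85.5% in the nuclear rescue (77.5 to 91.5, 110 reads). The knockdown interval overlapped the interval of the cytoplasmic rescue and lay below those of the control and nuclear rescue groups. Inclusion is counted on 2 junctions and skipping on 1, and the junction share lay above the authors' fraction in every group. With inclusion reads halved the share was 79.0% in control, 41.3% in knockdown, 57.0% in the cytoplasmic rescue and 74.6% in the nuclear rescue. Those values lay below the authors' fraction in every group. The intervals given here cover counting error only and take every junction read as separate. Whether a read or pair that crosses both inclusion junctions was counted on both is unknown. If it was, the intervals are too narrow.

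The deposited splice change of -0.325 was the third largest in size among 214 exons that the authors listed for the knockdown. Junction reads of control and knockdown differed by Fisher's exact test (two-sided, adjusted p = 2.04e-06 over 214 exons), as did 42.5% of the exons listed there. With the nuclear isoform the splice change was 0.282 in the authors' deposited table, rank 17 in size of 318 exons, and the junction reads differed (Fisher's exact adjusted p = 3.22e-05, 59.4% of listed exons called). With the cytoplasmic isoform the splice change was 0.140 in the authors' deposited table, rank 44 of 150 exons, and the junction reads did not pass (Fisher's exact unadjusted p = 0.0182, adjusted p = 0.0525, 33.3% of listed exons called). The knockdown libraries are shared by these 3 comparisons. Fisher's test compares the pooled libraries and not replicates of a condition. The exons were listed because their inclusion fraction changed by at least 0.1 between the same groups. Fisher's test on those groups is therefore not independent support for a change, and unlisted exons are not in the adjustment. The shares called are shares of exons already listed for a change.

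Comparisons that use no reads of the knockdown group were added after the tables had been seen, over exons that both tables list. The knockdown group still entered the choice of exons. In each comparison both groups differed from it by at least 0.1 in inclusion fraction for every exon tested. The p-values and shares called below hold for exons chosen in that way. The inclusion fraction of the nuclear rescue minus that of control was -0.043, and their junction reads did not differ detectably at this depth (Fisher's exact unadjusted p = 0.565, adjusted p = 0.877 over 65 exons, 16.9% called). For the cytoplasmic rescue minus control it was -0.185 (Fisher's exact adjusted p = 0.0146 over 48 exons, 6.25% called). The nuclear rescue was above the cytoplasmic rescue by 0.142 in inclusion fraction (Fisher's exact adjusted p = 0.0417 over 45 exons, 31.1% called). That last call was lost when inclusion reads were halved to count each molecule once (adjusted p = 0.0795) and when inclusion was read from the upstream junction alone (adjusted p = 0.132, Fisher's exact test in both cases).

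Rbfox1 measured 25.7 FPKM (fragments per kilobase of transcript, scaled to library size) in control, 1.94 in knockdown, 16.1 in the cytoplasmic rescue and 38.2 in the nuclear rescue. Rbfox3 fell from 12.4 to 1.59 FPKM in the knockdown and was 1.59 and 1.53 in the rescues. The paralog Rbfox2 was 35.4, 42.1, 33.2 and 17.7 FPKM in the same group order, and its fall from knockdown to nuclear rescue was called (q = 1.72e-09 in the authors' deposited table). The part of Rbfox2 in the exon values was not tested. The rescues differ in isoform and in amount of Rbfox1 RNA together, and these cannot be told apart here.

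**Figure D1:**
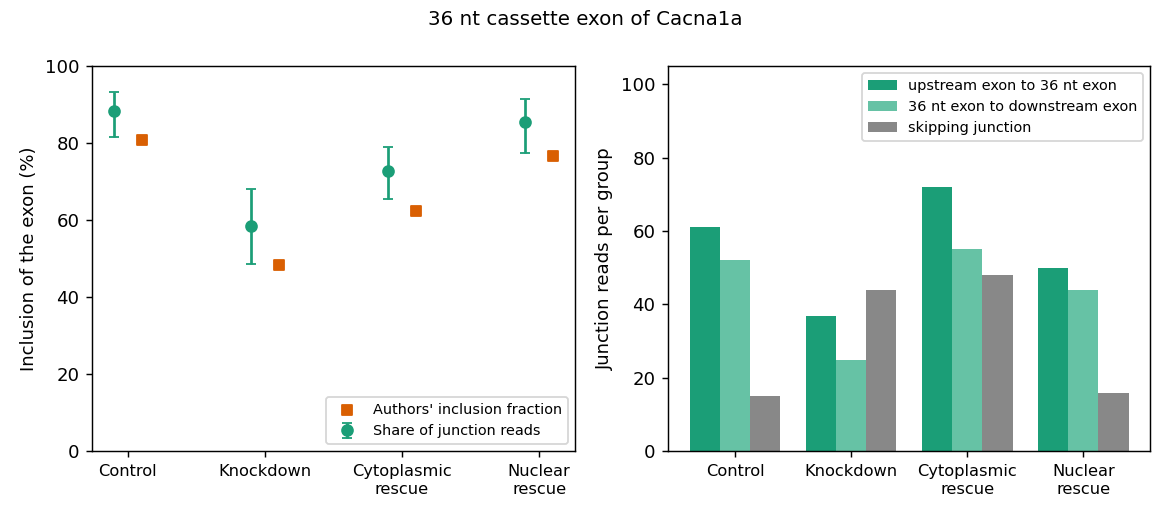
Inclusion of the Cacna1a 36 nt exon in each group. Left, the share of junction reads that include the exon in percent (circles, bars: exact 95% interval) and the authors' inclusion fraction in percent (squares). Right, reads per group on the 2 inclusion junctions and the skipping junction. Inclusion is lowest in the knockdown group (58.5% of junction reads) and highest in control (88.3%), and 44 reads skip the exon in the knockdown against 15 in control.

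Another 3 alpha subunit exons were listed, each in a single rescue table, so their control values were not analysed here. In the order of the channel types they are a 12 nt exon of Cacna1b, a 57 nt exon of Cacna1e and a 193 nt exon of Cacna1h. The tables list exons whose inclusion fraction changed by at least 0.1 between the groups, so a listed exon had to differ by that measure. The sequences of the 2 short ones, matched to GENCODE M21 in the same way, are shown with the exon in capitals because each adds a small number of whole codons at a known variable site of its channel. The Cacna1b exon lies at chr2:24512231-24512242 (mm9, minus strand), is exon 25 of 47 of the matched transcript, and encodes part of the extracellular S3 to S4 linker of the third repeat. GENCODE M21 lists 3 Cacna1b transcripts with it and 2 without. The Cacna1e exon lies at chr1:156320987-156321043 (mm9, minus strand), is exon 19 of 47, and encodes part of the intracellular loop between the second and the third repeat.
Cacna1b with the 12 nt exon: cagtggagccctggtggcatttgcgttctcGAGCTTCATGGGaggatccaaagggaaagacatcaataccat
Cacna1e with the 57 nt exon: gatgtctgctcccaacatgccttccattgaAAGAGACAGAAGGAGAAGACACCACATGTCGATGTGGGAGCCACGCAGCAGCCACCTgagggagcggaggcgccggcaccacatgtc

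The 12 nt exon of Cacna1b went from an inclusion fraction of 0.734 in knockdown to 0.860 in the cytoplasmic rescue. Of 79 junction reads in knockdown 77.2% included it (exact 95% interval 66.4 to 85.9), and of 85 in the cytoplasmic rescue 88.2% did (79.4 to 94.2). The intervals overlap, and the reads did not pass (Fisher's exact unadjusted p = 0.0657, adjusted p = 0.126 over 150 exons). The 2 inclusion junctions were far from balanced. The junction of exons 1 and 2, in the table's numbering, carried 54 and 68 reads in knockdown and cytoplasmic rescue, and that of exons 2 and 3 carried 7 and 7. Read from the latter alone, inclusion was 28.0% and 41.2%, so the level of this exon depends on which junction is counted.

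The 57 nt exon of Cacna1e went from 0.95 in knockdown to 0.844 in the nuclear rescue and so was less included with the nuclear isoform. Skipping reads numbered 8 of 333 in knockdown and 18 of 270 in the nuclear rescue, and the including share was 97.6% (exact 95% interval 95.3 to 99.0) and 93.3% (89.7 to 96.0). This passed (Fisher's exact adjusted p = 0.0269 over 318 exons), as did 59.4% of the exons listed there. It did not pass when inclusion was counted on the junction of exons 2 and 3 alone (Fisher's exact adjusted p = 0.106). The splice change of -0.106 in the authors' deposited table ranked 272 in size of 318, close to the smallest change listed.

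The 193 nt exon of Cacna1h lies at chr17:25520018-25520210 (mm9, minus strand), is exon 25 of 35 of the matched transcript, and is not a multiple of 3 in length, so skipping it shifts the reading frame. Its inclusion fraction went from 0.924 in knockdown to 0.780 in the cytoplasmic rescue. Skipping reads numbered only 3 of 169 and 6 of 146, and the including share was 98.2% (exact 95% interval 94.9 to 99.6) and 95.9% (91.3 to 98.5). The junction reads showed no detectable difference (Fisher's exact unadjusted p = 0.312, adjusted p = 0.368). The authors' fraction for the rescue lies well below the share of junction reads, although its p in the authors' deposited table was 3.71e-12.

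Among the auxiliary subunits 1 exon was listed, an 18 nt exon of Cacna2d3, whose product is an extracellular subunit that promotes surface expression of the channel. It lies at chr14:29937852-29937869 (mm9, minus strand) and went from an inclusion fraction of 0.669 in knockdown to 0.786 in the cytoplasmic rescue. Of 304 junction reads in knockdown 72.7% included it (exact 95% interval 67.3 to 77.6), and of 338 in the rescue 82.8% did (78.4 to 86.7). This passed (Fisher's exact adjusted p = 0.0115 over 150 exons), as did 33.3% of the exons listed there. Here too the junctions were unbalanced, with 190 and 31 reads in knockdown, and the smaller one alone did not pass (Fisher's exact adjusted p = 0.165).

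**Figure D2:**
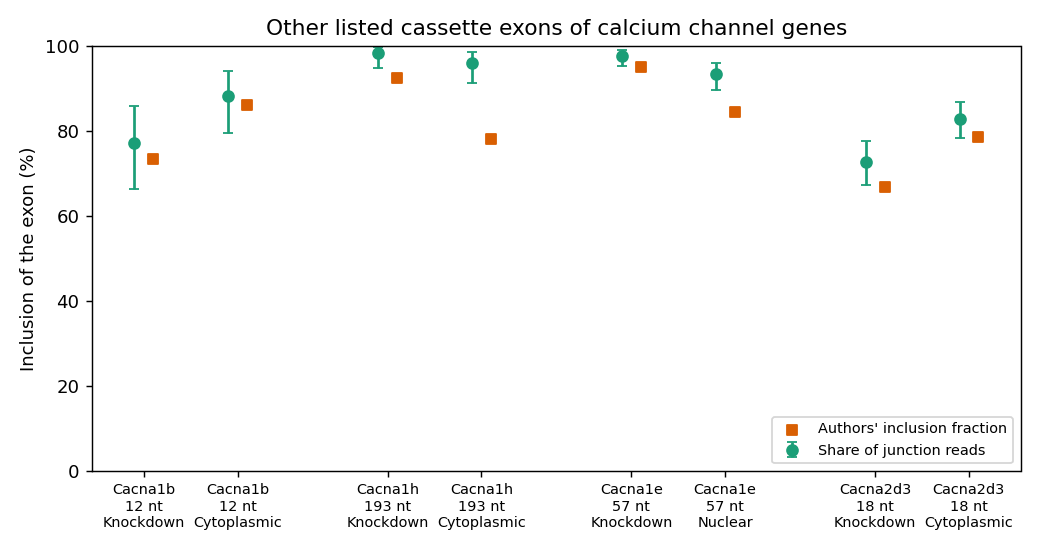
Inclusion in percent of the other listed exons of calcium channel genes, by gene, exon length and group: share of junction reads (circles, bars: exact 95% interval) and the authors' inclusion fraction (squares). The Cacna1h exon is included in 95.9% of junction reads in the cytoplasmic rescue while the authors' fraction is 0.780, and for Cacna1b the intervals of both groups overlap.

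FPKM is a level per transcript length, so levels of different genes are set side by side here. It accounts for transcript length and library size only, so the order and shares of genes are approximate. In control the R-type gene Cacna1e (10.8 FPKM) and the L-type gene Cacna1c (9.57) were highest. They were followed by N-type Cacna1b (6.72), P/Q-type Cacna1a (4.82), T-type Cacna1h (4.76), T-type Cacna1i (2.23), L-type Cacna1d (1.34) and T-type Cacna1g (0.869). The spread of a level is unknown, so gaps between neighbours were set beside the implied error, the standard error of a log2 ratio between groups that follows from the authors' test statistic. Cacna1e and Cacna1c lay 0.18 apart on the log2 scale and Cacna1a and Cacna1h 0.02 apart, both within 2 implied errors. The other neighbours lay 0.48 to 1.10 apart, beyond 2 implied errors. That error belongs to 1 gene between groups and not to a gap between genes, so the order was not tested.

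The order was the same in all groups apart from those close pairs. Cacna1c was above Cacna1e in both rescues, and Cacna1h was above Cacna1a in the knockdown group. The 3 genes of P/Q-, N- and R-type channels together made up 54.4% of the summed FPKM of the 8 genes in control, 51.4% in knockdown and 55.6% in the cytoplasmic rescue. L-type genes made up 26.5%, 27.8% and 26.7%, and T-type genes 19.1%, 20.8% and 17.7%. Summed FPKM was 41.1, 42.6 and 45.0. Without Cacna1a, so that the nuclear rescue can be included, the summed FPKM of 7 genes was 36.3, 38.3, 39.7 and 37.0 over the 4 groups.

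**Figure D3:**
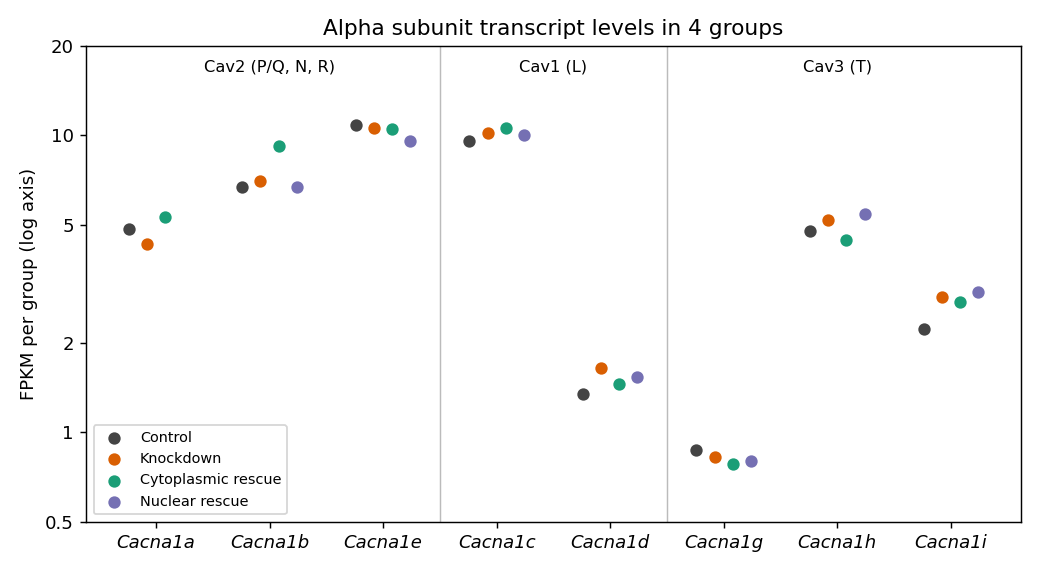
FPKM of each alpha subunit gene in the 4 groups (log axis, 1 point per group, each the authors' value for 2 libraries). Cacna1e and Cacna1c are near 10 FPKM in every group and Cacna1g lies below 1 in every group. The points of Cacna1e and Cacna1c lie close to each other and change order between groups, as do those of Cacna1a and Cacna1h.

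The P/Q-type gene Cacna1a (chr8:86939263-87164148, all gene positions in mm9) measured 4.82 FPKM in control, 4.30 in knockdown and 5.32 in the cytoplasmic rescue. Knockdown was lowest and the cytoplasmic rescue highest. The log2 ratio was -0.17 in the knockdown (95% interval -0.43 to 0.10 from the implied error) and 0.31 for the cytoplasmic rescue against knockdown (0.02 to 0.59). Neither was called, and the unadjusted p was 0.228 and 0.0333 in the authors' deposited table.

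The N-type gene Cacna1b (chr2:24461895-24618672) measured 6.72 FPKM in control, 7.02 in knockdown, 9.21 in the cytoplasmic rescue and 6.69 in the nuclear rescue. The cytoplasmic rescue stood above the other 3 groups, at 137% of control. Its log2 ratio to knockdown was 0.39 (95% interval 0.11 to 0.67), with an unadjusted p of 0.00673 and q of 0.276 in the authors' deposited table. The nuclear rescue differed from the cytoplasmic rescue by -0.46 on the log2 scale (95% interval -0.86 to -0.06), which did not pass a z test after Benjamini-Hochberg adjustment over 15365 genes. Both ratios use the same knockdown value, and its error was counted more than once. The interval is therefore too wide and the test too strict.

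The R-type gene Cacna1e (chr1:156239649-156573050) measured 10.8, 10.6, 10.5 and 9.58 FPKM in control, knockdown, cytoplasmic and nuclear rescue. All its values lay between 88.6% and 100% of control. The log2 ratio was -0.03 in the knockdown (95% interval -0.29 to 0.24) and -0.15 with the nuclear isoform (-0.46 to 0.17).

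The L-type gene Cacna1c (chr6:118542314-119171632) measured 9.57, 10.2, 10.6 and 10.0 FPKM in the same group order. Its highest and lowest group differed 1.10-fold, the least of the 8 genes, and its knockdown log2 ratio was 0.09 (95% interval -0.19 to 0.37). The other L-type gene, Cacna1d (chr14:30822186-31340242), measured 1.34, 1.65, 1.46 and 1.54 FPKM, with control lowest and knockdown highest. Its knockdown log2 ratio of 0.29 had a 95% interval of -0.05 to 0.63.

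Among the T-type genes Cacna1i (chr15:80117668-80228722) measured 2.23 FPKM in control, 2.85 in knockdown, 2.75 in the cytoplasmic rescue and 2.98 in the nuclear rescue. Control was the lowest and the other 3 groups were 123% to 134% of it. The knockdown log2 ratio was 0.35 (95% interval 0.08 to 0.62), with an unadjusted p of 0.0101 and q of 0.349 in the authors' deposited table. Against knockdown its log2 ratio was -0.05 in the cytoplasmic rescue and 0.06 in the nuclear rescue. Both intervals included 0. Cacna1h (chr17:25507498-25570728) measured 4.76, 5.20, 4.44 and 5.43 FPKM, with a log2 ratio of -0.23 (95% interval -0.50 to 0.05) for the cytoplasmic rescue against knockdown. Cacna1g (chr11:94269705-94335512) stayed between 0.780 and 0.869 FPKM.

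No alpha subunit gene was called at the authors' q below 0.05 in any comparison. In the knockdown 0 of 8 were called, where 2.35% of all genes were, and 1 (Cacna1i) had an unadjusted p below 0.05 in the authors' deposited table, against 10.9% of all genes. With the cytoplasmic isoform 0 of 8 were called (0.506% of all genes), and 2 (Cacna1a and Cacna1b) had an unadjusted p below 0.05 (5.33% of all genes). With the nuclear isoform 0 of 7 were called (0.110%) and 0 had an unadjusted p below 0.05 (1.05%). Between the rescues 0 of 7 were called by the z test (0.0260% of all genes) and 1, Cacna1b, had an unadjusted p below 0.05 (0.794%). That z test counts the knockdown error more than once, so it can miss differences.

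The median log2 ratio of the members was 0.08 in the knockdown (5 above and 3 below 0), against 0.03 over 12521 genes of at least 1 FPKM. It was -0.03 with the cytoplasmic isoform (3 above, 5 below) against -0.06 over all such genes, and -0.05 with the nuclear isoform (2 above, 5 below) against -0.01. In the knockdown the 95% intervals of the 8 genes ran from 0.721-fold at the lowest to 1.55-fold at the highest. The corresponding limits were 0.677-fold and 1.60-fold with the cytoplasmic isoform and 0.726-fold and 1.29-fold with the nuclear isoform. These limits rest on the authors' error, and a p above the threshold does not show that the levels were equal.

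**Figure D4:**
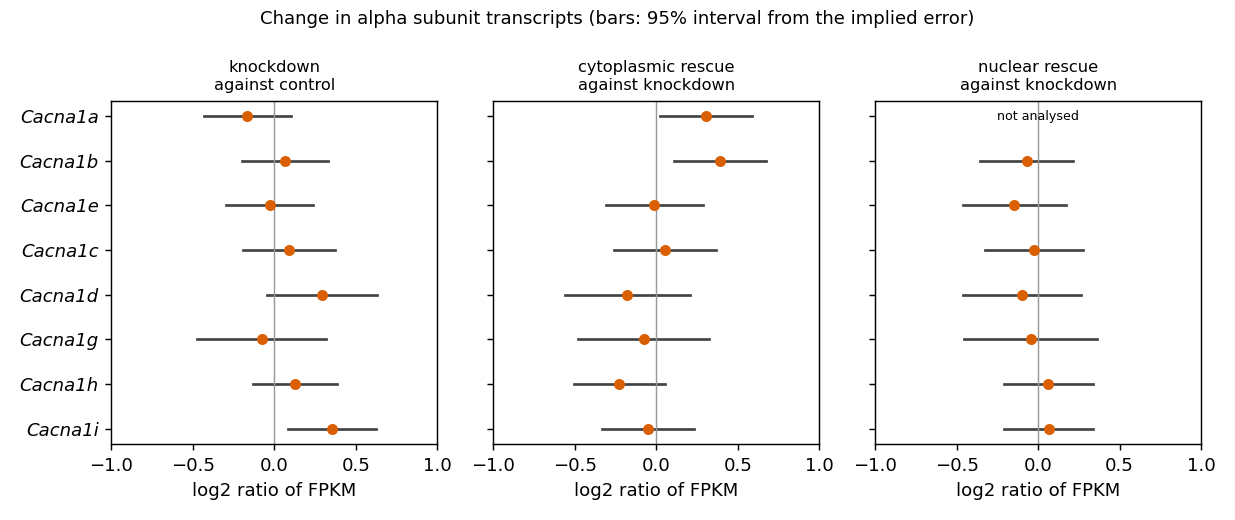
log2 ratio of FPKM for each alpha subunit gene in the 3 comparisons (points), with the 95% interval from the implied error (bars). The intervals of Cacna1i in the knockdown and of Cacna1a and Cacna1b with the cytoplasmic isoform exclude 0, and the highest limit is 0.67, for Cacna1b. No gene was called after adjustment.

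In bulk RNA, fewer cells of a type and less RNA per cell cannot be told apart. The 4 listed neuronal markers summed to 1017, 1044, 1051 and 1095 FPKM in control, knockdown, cytoplasmic and nuclear rescue. They did not move together: from control to knockdown Snap25 went from 456 to 323 FPKM and Syt1 from 49.3 to 46.4, while Tubb3 went from 291 to 408 and Stmn2 from 220 to 267. The culture was mixed. The 4 astrocyte markers, all listed, summed to 1036, 1035, 903 and 913 FPKM in control, knockdown, cytoplasmic and nuclear rescue, and the 5 oligodendrocyte lineage markers to 151, 170, 161 and 171. Inhibitory neuron markers summed to 122 FPKM in control and 98.4 to 99.6 in the other groups. Excitatory neuron markers summed to 200 FPKM in control, 180 in knockdown, 177 in the cytoplasmic rescue and 188 in the nuclear rescue. Within these sums Slc32a1 (9.36 to 10.7 FPKM) and Camk2a (28.6 to 40.6) were higher in the nuclear rescue than in control. The other inhibitory and excitatory markers were lower there. Microglia markers were low, with 3 of 4 below 1 FPKM in every group, and the listed pericyte and smooth muscle markers summed to 16.1 to 17.7 FPKM. The part of these cells in the channel values was not tested.

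Of the auxiliary subunits, which set surface expression and gating of the pore, 10 of 11 genes were listed in the knockdown table, 9 in the cytoplasmic table and 10 in the nuclear table. By the authors' Cufflinks q 0 were called in each, where 2.35%, 0.506% and 0.110% of all genes were called. At an unadjusted p below 0.05 in the authors' deposited table, 2 were lower in the knockdown (10.9% of all genes passed in either direction), 1 was higher with the cytoplasmic isoform (5.33%) and 1 was higher with the nuclear isoform (1.05%). Cacnb4, a cytoplasmic beta subunit, measured 8.74 FPKM in control, 7.29 in knockdown, 9.90 in the cytoplasmic rescue and 9.17 in the nuclear rescue. Knockdown was the lowest of the 4 groups. Its log2 ratio was -0.26 in the knockdown (95% interval -0.51 to -0.02), 0.44 with the cytoplasmic isoform (0.16 to 0.72) and 0.33 with the nuclear isoform (0.04 to 0.63), with q of 0.690, 0.135 and 0.606 in the authors' deposited table. Cacna2d1, an extracellular subunit, measured 29.0 FPKM in control, 22.6 in knockdown and 24.4 in the nuclear rescue. Its knockdown log2 ratio was -0.36 (95% interval -0.64 to -0.08) and was not called. Cachd1 was 3.26, 3.90, 3.20 and 3.80 FPKM over the 4 groups. Of the other auxiliary genes of at least 1 FPKM among the 3 largest log2 ratios of a comparison, Cacna2d2 went from 1.35 to 1.17 FPKM with the cytoplasmic isoform. With the nuclear isoform Cacnb3 went from 15.2 to 17.1 FPKM and Cacnb2 from 9.24 to 8.43, all uncalled.

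Of 21 genes for presynaptic and regulatory partners of the channel, all listed in the 3 tables, 1 was called in the knockdown (2.35% of all genes). With the cytoplasmic isoform 0 were called (0.506% of all genes), and with the nuclear isoform 0 (0.110%). At an unadjusted p below 0.05 in the authors' deposited table, 1 was higher and 3 lower in the knockdown, against 10.9% of all genes in either direction. With the cytoplasmic isoform 1 was higher and 1 lower (5.33% of all genes), and 0 passed with the nuclear isoform (1.05%). Rem2, a small GTPase that inhibits voltage-gated calcium channels, fell in the knockdown from 10.98 to 7.11 FPKM, and was 8.47 in the cytoplasmic and 6.93 in the nuclear rescue. Its log2 ratio was -0.63 (95% interval -0.91 to -0.34), with q = 0.00393 in the authors' deposited table, where 1.58% of all genes were called lower. Rrad, a GTPase of the same family, went from 1.11 to 0.599 FPKM and was not called (q = 0.0886 in the authors' deposited table). Gnb1, a G protein beta subunit, went from 62.1 to 78.2 FPKM and was not called. Among partners of at least 1 FPKM, Rimbp2, Unc13a and Gnao1 had the largest log2 ratios in size with the cytoplasmic isoform. The active zone gene Unc13a went from 43.0 to 55.4 FPKM, Rimbp2 from 3.82 to 2.90, and Gnao1 from 37.3 to 30.9, none of them called. Under the same minimum, with the nuclear isoform Stac went from 3.31 to 2.84 FPKM, Rimbp2 from 3.82 to 3.35 and Gem from 6.03 to 5.37, also uncalled. The related leak channel gene Nalcn was 22.2, 23.5, 20.4 and 22.5 FPKM over the 4 groups.

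The genes whose levels moved most like Cacna1i, by Euclidean distance of the 3 log2 ratios to control over 12040 genes of at least 1 FPKM, were Prps2 (distance 0.025), Kif18b (0.033) and Dpf1 (0.036). Within a distance of 0.1 there were 127 genes. For Cacna1a, over 2 ratios and 12077 genes, they were Rasl11a (0.0069), Gm8234 (0.0093) and Phyhipl (0.0098), with 130 genes within 0.1. With so many genes this near, closeness over so few group values sets none of them apart.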

How the data were processed

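RNA-seq had been run on 8 samples as paired reads of 50 nt without strand information, per the labels' protocols. CASAVA, Cufflinks and the build mm9 are named per the submitters' processing notes, with version numbers not given in the sources used here. FPKM values were deposited by the authors as 1 number per group and gene, combining 2 libraries, with a log2 fold change, a test score (test statistic), a p-value and a q-value. SpliceTrap is named per the labels as the source of the deposited inclusion fraction, splice change score, p-value and counts of junction reads per group. Another 36 value columns of the splicing tables were left out. Sequencing depth per sample is unknown.

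The log2 ratio was computed from FPKM and equalled the deposited one within 2.50e-04. The implied error is that fold change divided by the test statistic, since a normal distribution of the statistic gave the deposited p-value to within 2.81e-06. Intervals for ratios are 95% normal limits. Calls are q below 0.05 over each whole table. A z test on the difference of log2 ratios compared the rescues, with Benjamini-Hochberg adjustment over 15365 genes. The errors of both ratios were added in quadrature although both ratios share the knockdown group, which makes the test too strict. Fisher's exact test (scipy 1.17.1) was applied to junction reads and adjusted over every listed exon. Both tests were run on simulated data, with independent errors for the z test and counting error alone for Fisher's test. That simulation had no shared knockdown group and no spread between libraries, so it does not show that the tests suit these data. The planned tests over single libraries could not be made, since the tables hold no value per library. Exon starts are printed counted from 1. Exon sequences come from GENCODE M21 transcripts (GRCm38), found by the lengths of the exon, its neighbours and both introns. Intron sequence was not analysed here. Named partner and auxiliary genes are those called at q below 0.05 or among the 3 largest changes of a comparison at 1 FPKM or more. The members and lists were chosen with earlier results of these data known. The alternatives tried were a q of 0.01, q recomputed per table, an FPKM minimum of 1, a change of at least 0.5, pseudocounts of 0.1 and 1, centring, halved or single-junction inclusion reads, and a minimum of 20 junction reads. P-values for exons measure counting error between pooled libraries, with every junction read taken as separate, and those for genes rest on the authors' errors.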

Additional observations from a re-analysis of the deposited data

Results flagged for a closer look

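The inclusion of the Cacna1a 36 nt exon differed between the 2 rescues, 0.765 with the nuclear and 0.623 with the cytoplasmic isoform, with 94 and 127 including reads against 16 and 48 skipping reads (Fisher's exact adjusted p = 0.0417 over 45 exons). It stands out because the same siRNA treatment with 2 isoforms of 1 protein gave values that passed a direct test. That test compared pooled libraries, over exons listed for a change against knockdown in both rescues. The call did not hold with inclusion reads halved (adjusted p = 0.0795, Fisher's exact test). Rbfox1 was 38.2 FPKM in the nuclear and 16.1 in the cytoplasmic rescue, and its part in the difference was not tested.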

How the results depend on the processing

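No paired analysis was possible because the tables hold 1 value per group, and leaving out replicates was not run for the same reason. The count of alpha subunit genes called was 0 in each comparison and stayed 0 with q recomputed within the table, and the count differing between the rescues stayed 0 with the larger error alone. A stricter threshold, an FPKM minimum and a minimum change can only remove calls, so their counts of 0 say nothing about stability. Of the exons listed for the nuclear isoform, 2 alpha subunit exons passed by junction reads, where 59.4% of all listed exons did. With an adjusted p below 0.01, and with the junction of exons 2 and 3 alone, 1 passed, and the lost exon was that of Cacna1e. The adjusted p of the Cacna1a exon between the rescues rose from 0.0417 to 0.0795 with inclusion reads halved and to 0.132 with the junction of exons 1 and 2 alone, 2 alternatives chosen after seeing the data. It was 0.0491 with the junction of exons 2 and 3 alone. The other 51 values, those counts of 0 among them, kept their side of the threshold, or moved by less than their error, and so did 69 values of single genes. Centring on the median gene changed the sign of 2 of 23 uncalled log2 ratios (Cacna1e and Cacna1i with the cytoplasmic isoform). Depth limits the Cacna1h exon, with 3 and 6 skipping reads, and the Cacna1b exon, with 79 and 85 junction reads in all.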

Other observations

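Cacna1b measured 9.21 FPKM in the cytoplasmic rescue, the highest of its 4 groups, and the inclusion fraction of its 12 nt exon was 0.860 there against 0.734 in knockdown, the only groups with a value for that exon here. Neither difference from knockdown passed its test after adjustment.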
